A study of Mus musculus with 12 samples.

Results

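The 46 genes described here encode histone deacetylases, sirtuins, and other transcriptional corepressors and complex subunits outside the core of the NCoR complex. Also among them are the nuclear receptor coactivators Ncoa1, Ncoa2 and Ncoa3. All were read in mouse cerebral cortex. They were chosen by name, and each name was matched to a row of the deposited gene counts through the Ensembl ID and the GENCODE M21 annotation. All 46 names had a row among 54232, and all 46 had enough reads to be tested among 18016 genes. The mutant mice were homozygotes of the genotype labelled Tbl1xr1Y446C/Y446C, and the wild-type mice shared their strain, C57BL/6J. Cortex was taken at 12 weeks from 3 mutant males, 3 mutant females, 3 wild-type males and 3 wild-type females, 1 RNA library for each mouse. The series concerns a mouse model of Pierpont syndrome, a developmental disorder, and the mutated gene encodes a subunit of the NCoR corepressor.

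Corepressors are proteins that transcription factors recruit to keep genes silent. Most of them carry a histone deacetylase, an enzyme that removes acetyl groups from histone tails and so favours closed chromatin. The NCoR complex works through Hdac3, whereas Hdac1 and Hdac2 are shared by the SIN3, CoREST and NuRD complexes, and sirtuins are a separate family of deacylases that consume NAD. In brain, REST and CoREST are best known for repressing neuronal genes in cells other than neurons, and Hdac2 is known for restraining synaptic genes in neurons.

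Female mutant 3 stood apart from the other 11 libraries, and the results below are given with and without it. It held 3748515 counts, with 31.6% of them on mitochondrial genes, against 21238427 to 32669138 counts and 5.23% to 10.4% in the others. As 1 marker of the labelled tissue, the cortical excitatory neuron gene Tbr1 read 87.1 to 169 CPM in mutants and 102 to 140 CPM in wild types. Genes that mark the striatum were also read in every library, as given below. The 46 genes took 0.213% of the counts in female mutant 3 and 0.319% to 0.354% in each other library. A count of 0 in female mutant 3 allows a level of up to 1.16 CPM (the count scaled to library size, with TMM factors), against 0.0861 to 0.137 CPM in the others, and both limits cover counting error only. Tbl1xr1 itself was still transcribed in the mutants, at 93.5 ± 2.69 CPM against 105 ± 7.05 CPM in wild type (SD, n = 6 each), and its log2 fold change of -0.17 (SE 0.07) did not pass the test (edgeR adjusted p = 0.950), nor did the -0.18 (SE 0.06, adjusted p = 0.488) without female mutant 3. An amino acid substitution need not alter the count of its own gene, so that level does not check the labels.

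How far a gene departed in female mutant 3 went with the base composition of its whole transcript. The first 120 coding bases of 4 genes from both ends are shown as a sample of that composition, with G and C in capitals. The sequences are the coding strands of GENCODE M21 transcripts on build GRCm38, 5′ to 3′, from the start codon. Rcor2 (chr19:7267325-7275225, plus strand) and Hdac6 (chrX:7930120-7947889, minus strand) were the furthest below the other mutants. Hdac2 (chr10:36974544-37001889, plus strand) and Sin3a (chr9:57072040-57128366, plus strand) were the furthest above them after Mbd2, whose sequence is not shown.
Rcor2: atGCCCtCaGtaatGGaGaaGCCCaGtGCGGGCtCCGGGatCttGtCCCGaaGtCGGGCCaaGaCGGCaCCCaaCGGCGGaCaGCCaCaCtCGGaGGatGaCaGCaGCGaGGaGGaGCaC
Hdac6: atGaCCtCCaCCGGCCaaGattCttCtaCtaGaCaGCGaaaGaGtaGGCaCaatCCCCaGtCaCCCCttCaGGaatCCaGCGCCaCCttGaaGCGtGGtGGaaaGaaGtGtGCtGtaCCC
Sin3a: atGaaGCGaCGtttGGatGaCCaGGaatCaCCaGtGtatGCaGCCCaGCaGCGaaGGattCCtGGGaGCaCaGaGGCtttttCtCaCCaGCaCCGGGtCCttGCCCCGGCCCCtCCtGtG
Hdac2: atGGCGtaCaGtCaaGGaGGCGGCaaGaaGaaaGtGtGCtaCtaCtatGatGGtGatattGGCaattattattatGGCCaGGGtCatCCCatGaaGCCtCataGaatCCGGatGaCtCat
Over the whole transcript, G and C made up 61.6% of the bases in Rcor2, 54.6% in Hdac6, 48.3% in Sin3a and 41.9% in Hdac2. Mbd2, the highest in female mutant 3, held 56.5% and breaks that order. The opening bases shown hold 64.2% G and C in Rcor2, 54.2% in Hdac6, 59.2% in Sin3a and 45.0% in Hdac2. They do not keep the order of the whole transcripts, since those of Sin3a are richer than those of Hdac6.

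All 13 families were expressed in wild-type cortex, across a 72.1-fold range of level per kilobase of exon. Chd3, a nucleosome remodeller of NuRD, was the highest at 79.1 ± 4.15 CPM per kb, ahead of the histone chaperone Rbbp7 at 40.3 ± 3.58, Hdac11 at 35.8 ± 2.19, Chd4 at 32.6 ± 2.05 and Ctbp1 at 29.4 ± 2.70 CPM per kb (SD, n = 6). Rbbp7 and Hdac11 overlapped within these spreads, as did Chd4 and Ctbp1. The lowest were Rest at 1.097 ± 0.105, Sirt5 at 1.497 ± 0.0858 and Rcor3 at 1.62 ± 0.208 CPM per kb, and the median of the 46 was 5.99 CPM per kb. The low level of Rest in a tissue rich in neurons stands beside moderate levels of its partners Rcor1 and Kdm1a, at 5.08 and 11.1 CPM per kb. The coefficient of variation between wild-type mice had a median of 8.95% over the 46 genes and ran between 3.68% for Sin3b and 17.9% for Sirt6, against a median of 10.4% over 15056 genes of at least 1 CPM.

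**Figure D1:**
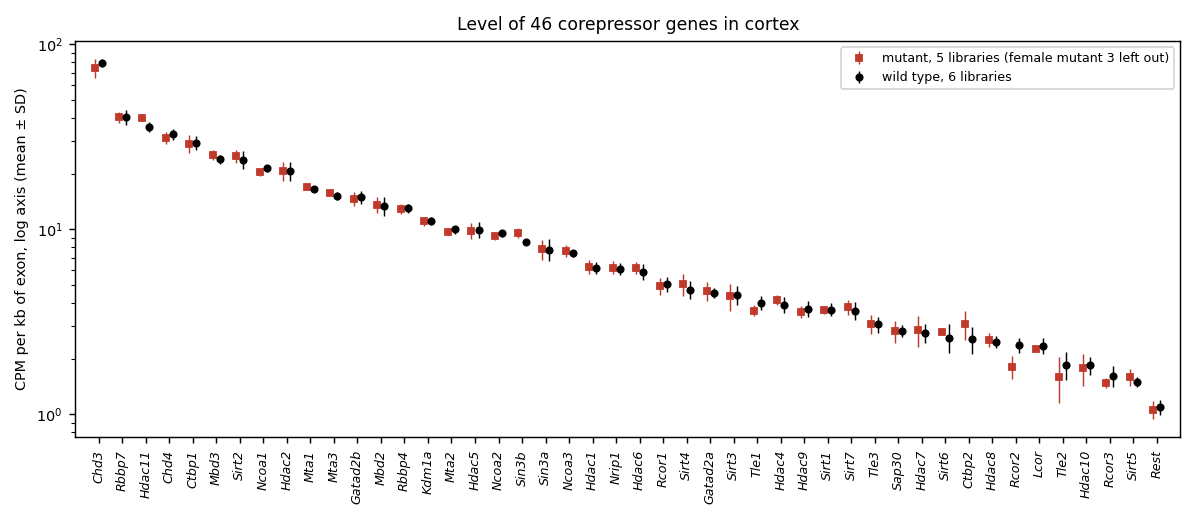
Mean level of each of the 46 genes in CPM per kb of exon (log axis), ordered by wild-type level, with bars of 1 SD between mice. Red squares are the 5 mutants other than female mutant 3 and black circles the 6 wild types, and the pairs lie close together from Chd3 (79.1 CPM per kb in wild type) to Rest (1.097), with Rcor2 the pair furthest apart.

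None of the 46 genes differed between mutant and wild-type cortex beyond the threshold. Over both sexes, 0 of 46 were called at an adjusted p below 0.05 by edgeR's quasi-likelihood test, against 0.00555% of all genes tested, and 0 without female mutant 3, against 0.0108%. DESeq2 also called 0 of the 46, against 29 of 18016 genes, and 0 without female mutant 3, against 53 of 18461. With limma-voom 0 were called, against 1 of 18016 genes, and 0 with library weights, against 22. At an unadjusted p below 0.05 the edgeR fit held 1 of 46, Tle2, against 3.96% of all genes, and without female mutant 3 it held 4 of 46 (8.70%), Hdac11, Sin3b, Rcor2 and Tle2, against 7.46% of all genes. That share was near the background. The mutant and wild-type ranges of CPM did not separate for any of the 46 genes, with all 12 libraries (0.438% of all genes separated) or with 11 (1.08%). Separation within a sex was not counted over all genes, so where it is described below for single genes no such share stands beside it.

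The differences were small and those without female mutant 3 were narrowly bounded. The log2 fold changes had a median of -0.01, with 20 above 0 and 26 below, and all genes tested also had a median of -0.01. With 12 libraries the 95% interval lay within 1.5-fold in either direction for 39 of 46 genes, and within 2-fold for 45, all except Rcor2. With the 11 deeper libraries it lay within 1.25-fold for 41 of 46, the others being Hdac10, Sirt6, Rcor2, Ctbp2 and Tle2, and within 1.5-fold for all except Rcor2. The median standard error was 0.126 with 12 libraries and 0.0784 with 11, and it was larger with female mutant 3 for each of the 46 genes. The labels do not say whether the mice came from separate litters, and in bulk tissue fewer cells of a type and less RNA per cell cannot be told apart.

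**Figure D2:**
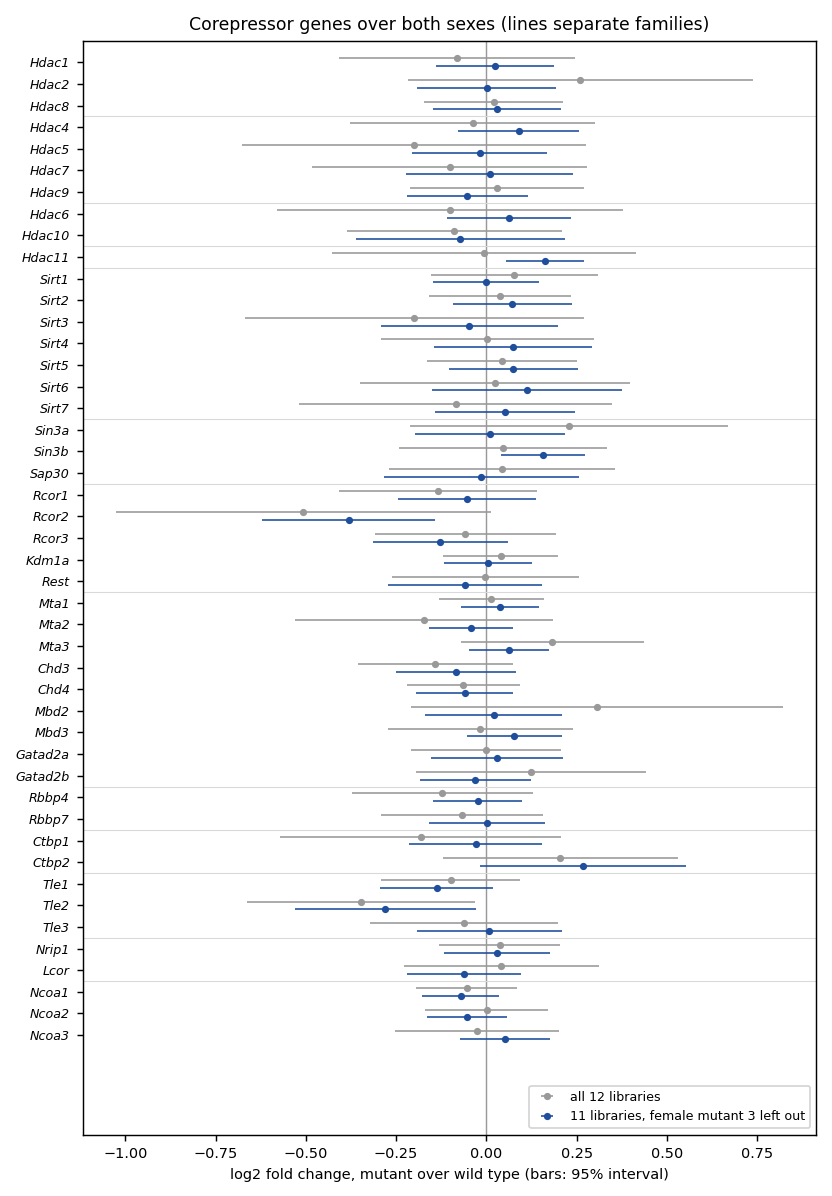
Log2 fold change, mutant over wild type, of each gene over both sexes with its 95% interval, in grey with all 12 libraries and in blue with female mutant 3 left out. Every grey bar is wider than its blue one, and the blue points lie between -0.14 and 0.16 except Rcor2 at -0.38, Tle2 at -0.28 and Ctbp2 at 0.27.

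The class I deacetylases, which act in the nucleus as the catalytic core of several complexes, differed little. Hdac2 read 87.6, 80.4 and 88.5 CPM in mutant males 7, 10 and 27 and 96.7, 233 and 109 CPM in mutant females 1, 3 and 6, against 113, 92.2 and 86.2 CPM in wild-type males 8, 12 and 13 and 87.7, 84.5 and 91.6 CPM in wild-type females 2, 4 and 5. Female mutant 3 was higher than any other library, and the remaining mutant and wild-type values overlapped with the sexes pooled and in males. In females the other 2 mutants also lay above the 3 wild types. Its log2 fold change over both sexes was 0.26 (SE 0.22, edgeR adjusted p = 0.950) with that library and 0.0005 (SE 0.09) without it, where the 95% interval covered 0.876-fold to 1.14-fold. Hdac1 (log2 fold change -0.08, and 0.02 without female mutant 3) and the X-linked Hdac8 (0.02 and 0.03) were closer to 0 with all libraries.

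The class IIa enzymes Hdac4, Hdac5, Hdac7 and Hdac9, which shuttle between nucleus and cytoplasm with neuronal activity, had log2 fold changes of -0.04, -0.20, -0.10 and 0.03 with 12 libraries and 0.09, -0.02, 0.01 and -0.05 with 11. The class IIb enzymes, the tubulin deacetylase Hdac6 and the polyamine deacetylase Hdac10, were at -0.10 and -0.09 with 12 libraries and at 0.06 and -0.07 with 11. None of these 6 genes passed the test in either fit.

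Hdac11, the only class IV enzyme and a remover of fatty acyl groups, is described together with Sin3b because both had small p-values without female mutant 3, so the pair was chosen after the values were seen. Hdac11 (chr6:91156665-91174692) read 159, 153 and 146 CPM in mutant males 7, 10 and 27 and 157, 55.4 and 150 CPM in mutant females 1, 3 and 6, against 127, 130 and 138 CPM in wild-type males 8, 12 and 13 and 139, 148 and 146 CPM in wild-type females 2, 4 and 5. The 3 mutant males lay above the 3 wild-type males, and in females mutants 1 and 6 lay above the wild types and mutant 3 below them. Its log2 fold change was -0.01 (SE 0.19) with 12 libraries and 0.16 (SE 0.05, edgeR adjusted p = 0.488) with 11, so leaving out 1 library moved it off 0. Exons of Hdac11 overlap those of the opposite-strand genes Gm44002 and Gm14573, and the strand setting of the counting was not given in the sources used here.

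The 7 sirtuins, among them the nuclear Sirt1, the myelin-enriched Sirt2 and the mitochondrial Sirt3, Sirt4 and Sirt5, had a median log2 fold change of 0.02, with 5 above 0 and 2 below. Without female mutant 3 the median was 0.07, and none passed the test. Sirt3 had the lowest value with 12 libraries, -0.20 (SE 0.22), and -0.05 (SE 0.11) without female mutant 3, and its exons overlap those of Psmd13 and Ric8a on the other strand.

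In the SIN3 complex, Sin3a and Sin3b are alternative scaffolds that hold Hdac1 and Hdac2, and Sap30 stabilises the assembly. Sin3a read 39.4, 38.2 and 36.9 CPM in mutant males 7, 10 and 27 and 47.5, 101 and 47.4 CPM in mutant females 1, 3 and 6, against 49.2, 40.2 and 37.1 CPM in wild-type males 8, 12 and 13 and 38.6, 36.9 and 49.0 CPM in wild-type females 2, 4 and 5. Apart from female mutant 3, 2 mutants and 2 wild types read at least 47.4 CPM and the other 7 libraries at most 40.2 CPM, and the log2 fold change was 0.23 (SE 0.20) with 12 libraries and 0.01 (SE 0.10) with 11. Sin3b (chr8:72723285-72758201) read 68.4, 66.1 and 74.4 CPM in mutant males 7, 10 and 27 and 67.9, 36.4 and 74.7 CPM in mutant females 1, 3 and 6, against 60.1, 64.6 and 66.4 CPM in wild-type males 8, 12 and 13 and 64.1, 61.2 and 62.4 CPM in wild-type females 2, 4 and 5. Of the mutants, 4 lay above every wild type, male mutant 10 lay just below the highest wild type, and female mutant 3 lay below all other libraries. Its log2 fold change was 0.05 (SE 0.13) with 12 libraries and 0.16 (SE 0.05, edgeR adjusted p = 0.520) with 11. Sap30 was at 0.04 and -0.01.

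Rcor2 had the most negative log2 fold change of the 46 genes with 12 and with 11 libraries, although it did not pass the test in either. Rcor1, Rcor2 and Rcor3 encode alternative CoREST scaffolds, which join Hdac1 or Hdac2 to the histone demethylase Kdm1a. Rcor2 read 5.69, 4.88 and 6.88 CPM in mutant males 7, 10 and 27 and 5.03, 0.387 and 6.08 CPM in mutant females 1, 3 and 6, against 6.77, 7.44 and 6.93 CPM in wild-type males 8, 12 and 13 and 7.16, 8.39 and 8.21 CPM in wild-type females 2, 4 and 5. All 6 wild types lay above 5 of the 6 mutants, and the ranges met at male mutant 27. The value of female mutant 3 rested on 1 read and lay below the 1.16 CPM that a count of 0 allows there. The log2 fold change was -0.51 (SE 0.24, edgeR adjusted p = 0.950) with 12 libraries and -0.38 (SE 0.11, adjusted p = 0.463) with 11, where the 95% interval covered 0.650-fold to 0.907-fold.

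Of the other CoREST genes, Rcor1 (chr12:111039351-111115901) read 29.2, 28.9 and 31.2 CPM in mutant males 7, 10 and 27 and 23.3, 16.3 and 27.3 CPM in mutant females 1, 3 and 6, against 23.5, 29.7 and 30.9 CPM in wild-type males 8, 12 and 13 and 30.2, 30.04 and 28.8 CPM in wild-type females 2, 4 and 5. The mutant females lay below the wild-type females, the males overlapped, and the log2 fold change was -0.13 (SE 0.13) with 12 libraries and -0.05 (SE 0.09) with 11. The ratio of Rcor1 to Rcor2 per kilobase was 2.50 to 3.29 in the 5 mutants other than female mutant 3, where it was 23.3, against 1.93 to 2.47 in wild type. That pair was chosen after the values were seen and was not tested. Rcor3 (log2 fold change -0.06, and -0.13 without female mutant 3), Kdm1a (0.04 and 0.005) and Rest (-0.003 and -0.06) did not pass the test.

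NuRD couples the deacetylases to nucleosome remodelling through Chd3 or Chd4, and its other subunits here are the scaffolds Mta1 to Mta3, the CpG-binding Mbd2 and Mbd3, and the bridging Gatad2a and Gatad2b. The 9 genes had a median log2 fold change of -0.001, and 0.02 without female mutant 3. Chd3 (chr11:69343273-69369406) read 606, 547 and 710 CPM in mutant males 7, 10 and 27 and 576, 482 and 707 CPM in mutant females 1, 3 and 6, against 637, 663 and 723 CPM in wild-type males 8, 12 and 13 and 659, 692 and 630 CPM in wild-type females 2, 4 and 5. In each sex the wild types kept inside a narrower band than the mutants, and the log2 fold change was -0.14 (SE 0.10) with 12 libraries and -0.08 (SE 0.08) with 11. Mbd2 read 43.7, 38.8 and 39.5 CPM in mutant males 7, 10 and 27 and 48.6, 124 and 47.5 CPM in mutant females 1, 3 and 6, against 49.7, 43.5 and 38.9 CPM in wild-type males 8, 12 and 13 and 38.3, 39.7 and 49.0 CPM in wild-type females 2, 4 and 5. Its log2 fold change was 0.31 (SE 0.24) with 12 libraries and 0.02 (SE 0.09) with 11, a difference set by female mutant 3.

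Mta3 (chr17:83706163-83821516) read 84.3, 84.9 and 79.1 CPM in mutant males 7, 10 and 27 and 86.2, 136 and 85.7 CPM in mutant females 1, 3 and 6, against 88.5, 77.5 and 78.5 CPM in wild-type males 8, 12 and 13 and 80.4, 82.3 and 76.6 CPM in wild-type females 2, 4 and 5. Mta2 (chr19:8941875-8952303) read 39.6, 39.1 and 41.6 CPM in mutant males 7, 10 and 27 and 38.7, 15.1 and 39.4 CPM in mutant females 1, 3 and 6, against 39.5, 43.3 and 40.3 CPM in wild-type males 8, 12 and 13 and 38.0, 40.9 and 43.0 CPM in wild-type females 2, 4 and 5. These paralogues took opposite places in female mutant 3 and overlapped between genotypes elsewhere with the sexes pooled. Within females, mutants 1 and 6 lay above the 3 wild types for Mta3 and overlapped them for Mta2. Their log2 fold changes were 0.18 (SE 0.12) for Mta3 and -0.17 (SE 0.16) for Mta2 with 12 libraries, and 0.06 (SE 0.05) and -0.04 (SE 0.05) with 11. The remaining NuRD genes lay between -0.06 and 0.12 with 12 libraries and between -0.06 and 0.08 with 11.

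Rbbp4 and Rbbp7 are histone chaperones shared by SIN3 and NuRD. Rbbp4 (chr4:129307100-129335370) read 111, 123 and 118 CPM in mutant males 7, 10 and 27 and 105, 65.8 and 108 CPM in mutant females 1, 3 and 6, against 106, 117 and 119 CPM in wild-type males 8, 12 and 13 and 111, 122 and 109 CPM in wild-type females 2, 4 and 5. Apart from female mutant 3 the 2 genotypes overlapped with the sexes pooled and in males, while the other 2 mutant females lay below the 3 wild-type females. The log2 fold change was -0.12 (SE 0.12) with 12 libraries and -0.02 (SE 0.06) with 11. Exons of Rbbp4 overlap those of Gm26722 and Sync on the other strand. Rbbp7 was at -0.07 and 0.002.

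The CtBP corepressors bind NADH and recruit deacetylases and demethylases to short peptide motifs, and neither of their 2 genes passed the test. Ctbp2 (chr7:132987563-133124354) read 17.3, 25.1 and 17.9 CPM in mutant males 7, 10 and 27 and 16.8, 12.0 and 18.6 CPM in mutant females 1, 3 and 6, against 16.5, 13.01 and 18.9 CPM in wild-type males 8, 12 and 13 and 17.97, 16.2 and 12.2 CPM in wild-type females 2, 4 and 5. Male mutant 10 was the highest of all, and the other mutants lay inside the wild-type range except female mutant 3 just below it. The log2 fold change was 0.20 (SE 0.15) with 12 libraries and 0.27 (SE 0.13, edgeR adjusted p = 0.6997) with 11. Exons of Ctbp2 overlap those of Fgfr2 on the same strand. Ctbp1 was at -0.18 (SE 0.18) and -0.03 (SE 0.09).

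Of the Groucho proteins, which the Notch and Wnt pathways use as corepressors, Tle2 had the smallest p-value of the 46 genes with 12 libraries. Tle2 (chr10:81574561-81590845) read 9.604, 14.2 and 10.8 CPM in mutant males 7, 10 and 27 and 7.78, 4.26 and 7.23 CPM in mutant females 1, 3 and 6, against 12.4, 12.6 and 14.2 CPM in wild-type males 8, 12 and 13 and 9.63, 11.7 and 8.86 CPM in wild-type females 2, 4 and 5. The mutant females lay below the wild-type females, and in males 2 mutants lay below the wild types and male mutant 10 level with the highest. The log2 fold change was -0.35 (SE 0.15, edgeR adjusted p = 0.950) with 12 libraries and -0.28 (SE 0.12, adjusted p = 0.601) with 11. Tle1 (chr4:72117142-72200919) read 32.5, 29.3 and 29.3 CPM in mutant males 7, 10 and 27 and 33.7, 38.7 and 33.6 CPM in mutant females 1, 3 and 6, against 34.3, 40.0 and 34.6 CPM in wild-type males 8, 12 and 13 and 31.3, 33.7 and 35.5 CPM in wild-type females 2, 4 and 5. The 3 mutant males lay below the 3 wild-type males, whereas the females overlapped, and the log2 fold change over both sexes was -0.10 (SE 0.09) with 12 libraries and -0.14 (SE 0.07) with 11. Exons of Tle1 and Tle2 each overlap an annotated gene on the other strand, and Tle3 was at -0.06 and 0.01.

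**Figure D3:**
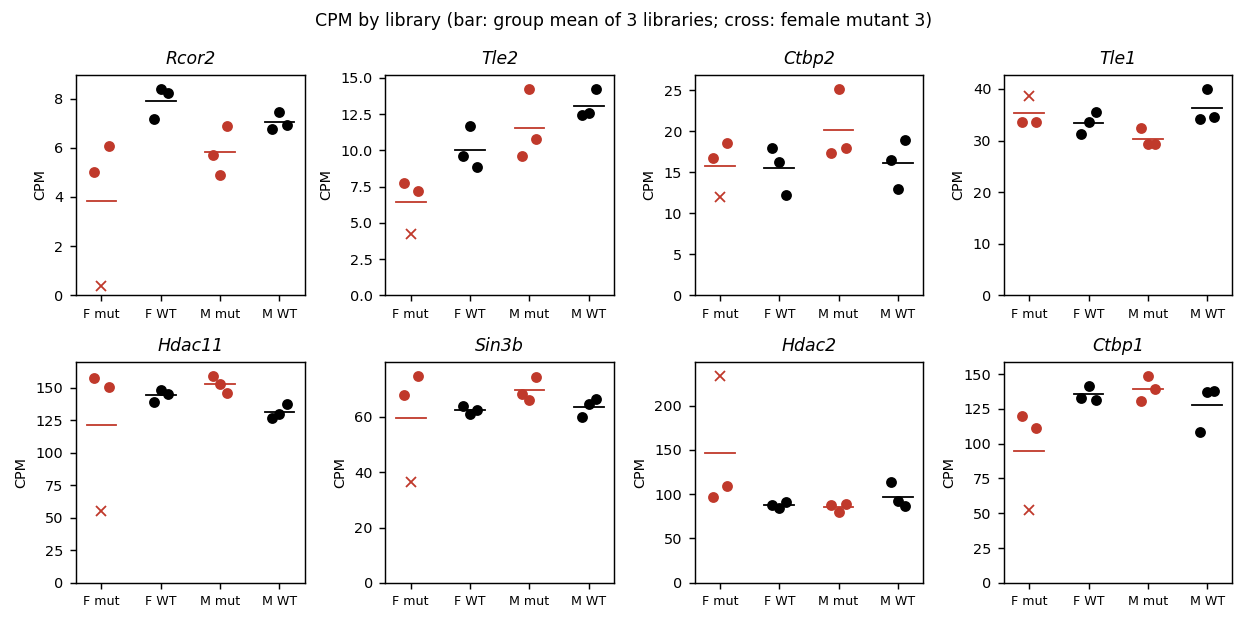
CPM of 8 genes in every library, with a bar at the mean of each group of 3 and a cross for female mutant 3. Rcor2 shows all mutants but 1 below every wild type, and Hdac11 and Tle1 separate by genotype in males. Genes not drawn, such as Mbd3, Hdac4, Hdac5, Nrip1 and Ncoa1, also separate in males, and the share over all genes was not counted. The cross stands apart from the other mutants for Rcor2, Hdac11, Sin3b, Hdac2 and Ctbp1.

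The ligand-dependent corepressors Nrip1 and Lcor, which bind hormone-activated nuclear receptors, had log2 fold changes of 0.04 each, and 0.03 and -0.06 without female mutant 3. The nuclear receptor coactivators Ncoa1, Ncoa2 and Ncoa3, which act against the corepressors at the same receptors, were at -0.05, 0.0004 and -0.03, and at -0.07, -0.05 and 0.05 without female mutant 3.

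Within each sex 0 of 46 genes were called by edgeR, in females (0% of all genes) and in males (0% of all genes). DESeq2 also called 0 of the 46, against 6 of 18016 genes in females and 4 in males. With limma-voom 0 were called, against 0 genes in females and 0 in males. In females 9 of 46 genes (19.6%) had an unadjusted p below 0.05, against 11.8% of all genes, and without female mutant 3 there were 7 (15.2%), against 9.41%. The 4 smallest p-values in females belonged to Hdac2, Tle2, Mbd2 and Sin3a, with log2 fold changes of 0.71 (SE 0.26), -0.54 (SE 0.20), 0.73 (SE 0.30) and 0.61 (SE 0.25), each at an edgeR adjusted p of 0.418. Without female mutant 3 they stood at 0.23, -0.42, 0.18 and 0.19, so all 4 were smaller in size without that library, with Tle2 changing least. The females then rested on mutants 1 and 6 only, whose mitochondrial shares (9.96% and 8.97%) were above those of the wild-type females (5.23% to 7.89%). With that share as a covariate, added after the data were seen, and 11 libraries, Hdac4, Hdac6 and Sin3b had an unadjusted edgeR p below 0.05 in females. That was 6.52% of the 46 genes, against 7.19% of all genes. In males only Tle1 had an unadjusted p below 0.05, against 2.78% of all genes, with a log2 fold change of -0.26 (SE 0.11, edgeR adjusted p = 0.9999). The other small p-values in males were those of Ctbp2 (0.32), Ncoa1 (-0.12) and Sirt5 (0.17), whose log2 fold changes were 0.33, -0.12 and 0.17 without female mutant 3. Without female mutant 3, whose spread no longer entered the fit, 3 genes had an unadjusted p below 0.05, Hdac11, Tle1 and Mbd3, against 8.43%. None of the 46 was called in that fit, against 0.00542% of all genes in males.

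Whether the genotypes differed more in males than in females was tested as an interaction, and 0 of 46 genes passed by edgeR (0% of all genes). At an unadjusted p below 0.05 there were 4, Hdac2, Hdac10, Nrip1 and Gatad2b, against 7.67% of all genes. Their log2 values, males minus females, were -0.89 (SE 0.37), 0.55 (SE 0.24), -0.30 (SE 0.13) and -0.56 (SE 0.25), each at an edgeR adjusted p of 0.555, and -0.41, 0.56, -0.31 and -0.27 without female mutant 3. In that fit there were 6 (13%), Nrip1, Hdac5, Hdac2, Sirt3, Ctbp1 and Hdac10, against 10.6%, each at an adjusted p of 0.459. With the mitochondrial share as a covariate and female mutant 3 left out only Nrip1 remained at an unadjusted edgeR p below 0.05, against 3.99% of all genes. Males against females over both genotypes gave 0 called genes of the 46, against 0.0389% of all genes. Tle2 was the 1 gene at an unadjusted p below 0.05 there, against 1.77% of all genes, and it was higher in males by a log2 fold change of 0.55 (SE 0.15, edgeR adjusted p = 0.897), and by 0.48 (SE 0.12) without female mutant 3. That fit called 0 of the 46, against 0.0433% of all genes, and held 2 at an unadjusted p below 0.05, Tle2 and Hdac7, against 2.67%. Hdac7 (0.35), Sin3a (-0.35) and Sirt4 (0.22) followed, and without female mutant 3 they stood at 0.23, -0.13 and 0.15.

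The other genes of these complexes did not pass the test over both sexes either. Tbl1xr1 and its 5 partners in the NCoR core gave 0 of 6, 12 tested SIN3 subunits beyond those above gave 0, 6 CoREST subunits 0, 6 tested NuRD subunits 0, 5 partners of CtBP 0, 3 further Groucho genes 0 and 14 acetyltransferases and coactivators 0. Their median log2 fold changes were -0.06, 0.11, 0.02, -0.02, 0.01, -0.17 and 0.10, against -0.01 over all genes, and -0.06, 0.01, 0.005, 0.07, 0.08, -0.16 and 0.01 without female mutant 3. The 15 neuronal genes listed as REST targets gave 0, with a median of 0.01, and -0.04 without female mutant 3. Whether REST or CoREST acts on them in this tissue was not tested.

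The genes of smallest p in these lists are named with their log2 fold changes. Among the SIN3 subunits, Ing1 stood at 0.21 (SE 0.10) and Arid4a at 0.41 (SE 0.26), and Arid4a at 0.12 without female mutant 3. Gse1 (-0.18) and Phf21a (0.13) led the CoREST subunits, Zfpm1 (-0.28) and Zfpm2 (0.15) the NuRD subunits, Ehmt1 (0.07) and Ehmt2 (-0.14) the partners of CtBP, Ncoa7 (0.22) and Kat2b (0.13) the acetyltransferases and coactivators, and Chrm4 (-0.30) and Bdnf (0.12) the REST targets. Without female mutant 3 several of these were closer to 0, with Gse1 at -0.06, Phf21a at 0.05, Zfpm1 at -0.13, Ehmt2 at 0.001, Ncoa7 at 0.03 and Kat2b at 0.08. Tle6, a relative of the Groucho genes at about 2 CPM, stood at -0.74 (SE 0.24), and at -0.67 (SE 0.17, edgeR adjusted p = 0.411) without female mutant 3, and Tle4 stood at -0.17 (SE 0.09).

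The level of several of the 46 genes moved with the mitochondrial share of the library across the 11 libraries other than female mutant 3. At an adjusted permutation p below 0.05, 11 of 46 genes (23.9%) were related to that share, against 13.4% of 18461 genes, with p-values adjusted over all of those genes and 6 such measures examined for each gene. Of these, 5 were higher in libraries of high share, Hdac2 (r = 0.860), Sirt2 (0.791), Sin3a (0.919), Mbd2 (0.876) and Gatad2b (0.832). The other 6 were lower there, Hdac4 (-0.814), Hdac6 (-0.829), Sirt3 (-0.844), Rcor1 (-0.916), Rbbp4 (-0.910) and Ctbp1 (-0.926). Not all of these held equally. Without the 2 libraries farthest from the median share, r was 0.507 for Sirt2, -0.567 for Hdac4, 0.835 to 0.922 for the other 4 positive ones and -0.938 to -0.720 for the other 5 negative ones. Over all 12 libraries r was -0.113 for Sirt2, whose rank correlation did not pass either (rho = 0.627, adjusted p = 0.188), nor did those of Hdac2 (adjusted p = 0.0807), Mbd2 (adjusted p = 0.100) and Rcor1 (adjusted p = 0.0616).

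Of the 11 genes, Ctbp1 had the r and rho of largest size (Pearson's r = -0.926, permutation p = 0.0002, adjusted p = 0.00738; Spearman's rho = -0.945, permutation p = 9e-05, adjusted p = 0.0081), and r was -0.901 without the 2 libraries farthest from the median share and -0.868 with group means removed. Rbbp4 had the smallest permutation p, 4e-05 (adjusted p = 0.00379), and with group means removed Hdac4 (-0.951) and Hdac6 (-0.948) exceeded Ctbp1. Sin3a had the largest positive r (r = 0.919, permutation p = 0.00071, adjusted p = 0.0138; rho = 0.855, permutation p = 0.00136, adjusted p = 0.0266), with r = 0.922 without the 2 farthest libraries and 0.885 with group means removed. The share was highest in male wild type 8 (10.4%), female mutant 1 (9.96%) and female mutant 6 (8.97%), so it was not spread evenly between the genotypes within a sex. With the share as a covariate, added after the data were seen, the log2 fold changes over both sexes were -0.03 for Hdac2, -0.01 for Mbd2 and -0.02 for Sin3a with all 12 libraries, and 0 of the 46 genes were called. The share was 31.6% in female mutant 3 and at most 10.4% elsewhere, so with 12 libraries this covariate largely marked that library. Leaving that library out, with no covariate, gave 0.0005 for Hdac2, 0.02 for Mbd2 and 0.01 for Sin3a. An effect of the share on these 3 values therefore cannot be told apart from that of the library. For Hdac11 and Rcor2 with the share as a covariate and female mutant 3 left out the log2 fold changes were 0.17 (SE 0.04, edgeR adjusted p = 0.161) and -0.36 (SE 0.105, adjusted p = 0.221).

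Ctbp2 moved with genes that mark neurons of the striatum, a region next to the cortex. Its level also went with neuron markers, and with astrocyte markers short of the threshold, as given below. Over 11 libraries its level fell as the mean log2 CPM of 9 striatal markers rose (r = -0.972, permutation p = 1e-05, the smallest these permutations can give, adjusted p = 0.0041; rho = -0.973, permutation p = 1e-05, adjusted p = 0.0103). The relation was -0.908 without the 2 farthest libraries, -0.960 with group means removed and -0.849 over 12 libraries, and Ctbp2 was the only 1 of the 46 genes related to those markers at an adjusted p below 0.05, against 1.12% of all genes. The 9 markers, none at 0 in any library, summed to 270 to 1035 CPM in mutants and 531 to 1845 CPM in wild types, and all 9 had negative log2 fold changes with a median of -0.79. None was called over all genes. At an unadjusted p below 0.05, 6 of the 9 were lower, and 8 of the 9 without female mutant 3 (median -0.90), against 3.96% and 7.46% of all genes in either direction. Within a sex and without female mutant 3, all 9 stayed negative. At that p there were 0 of 9 in females and 3 of 9 in males, against 9.41% and 8.43% of all genes. Markers of 1 region read in the same libraries are not independent, so these counts describe 1 measure. With their level as a covariate, also added after the data were seen, the log2 fold change of Ctbp2 was -0.08, and -0.02 (SE 0.08) without female mutant 3. Neuron markers were related to Chd4 (r = 0.885, permutation p = 0.00017, adjusted p = 0.0305; rho = 0.873, adjusted p = 0.137) and to Ctbp2 (r = -0.912, permutation p = 0.00022, adjusted p = 0.0338; rho = -0.764, adjusted p = 0.253), with r = 0.894 and -0.785 without the 2 farthest libraries, against 0.948% of all genes. Astrocyte, oligodendrocyte and microglia markers were related to 0 of the 46 genes at an adjusted p below 0.05, against 0.0921%, 0.2% and 0% of all genes. The level of Ctbp2 rose with the astrocyte markers short of that threshold (r = 0.900, permutation p = 0.00065, adjusted p = 0.107; rho = 0.764, adjusted p = 0.379), with r = 0.719 without the 2 farthest libraries and 0.889 with group means removed. The level of Rcor2 fell with them, also short of it (r = -0.861, permutation p = 0.0004, adjusted p = 0.0973, rho = -0.864, adjusted p = 0.269). For Rcor2 r was -0.863 without the 2 farthest libraries, -0.836 with group means removed and 0.402 over all 12. Other markers also leaned by genotype in the fit without female mutant 3, though none was called. All 9 neuron markers had negative log2 fold changes (median -0.105), 1 of them at an unadjusted edgeR p below 0.05. Of 8 astrocyte markers, 4 were higher and 2 lower at that p (median 0.14), against 7.46% of all genes. With all 12 libraries 1 of the 9 was lower and 3 of the 8 were higher at that p, and 5 of the 9 had negative log2 fold changes. Without female mutant 3 the medians in males were -0.22 for the neuron markers and 0.157 for the astrocyte markers. In females they were 0.069 and 0.0553, with 6 of the 9 and 4 of the 8 above 0, so the lean lay mainly in males. What part these measures had in the differences between genotypes was not tested beyond these fits.

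**Figure D4:**
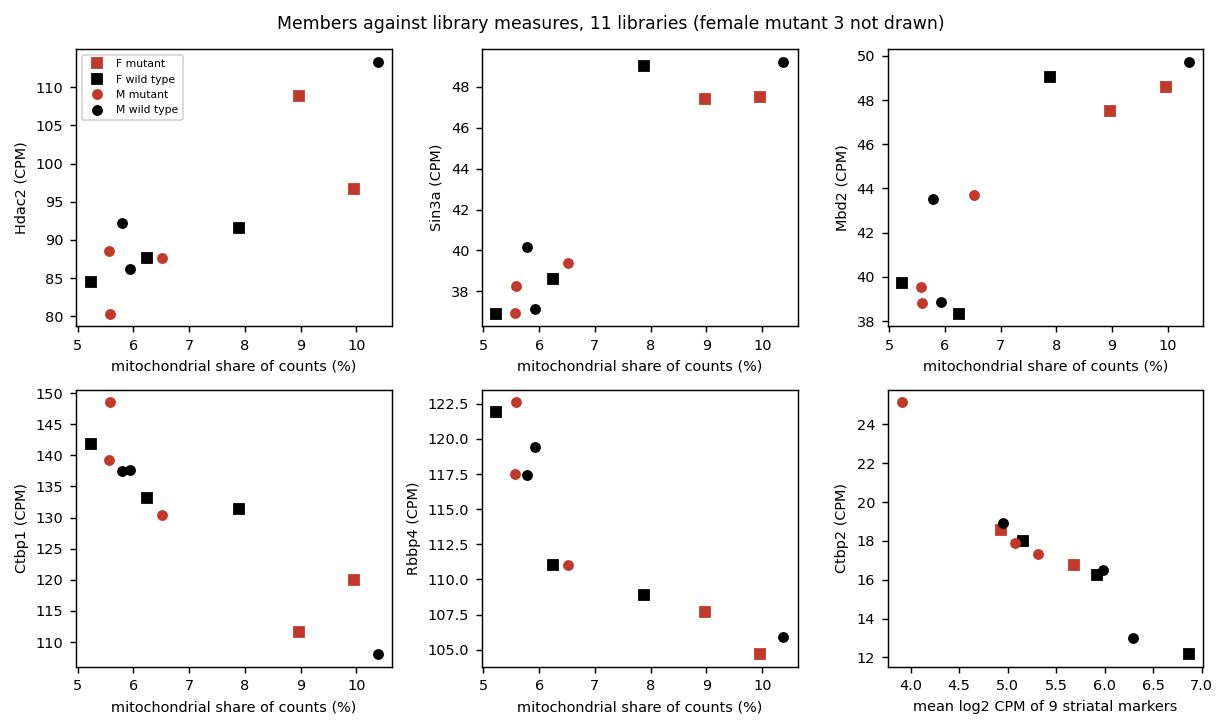
CPM of 5 genes against the mitochondrial share of counts (percent) and of Ctbp2 against the mean log2 CPM of 9 striatal markers, 1 point per library for the 11 libraries other than female mutant 3, coloured by genotype and shaped by sex. Hdac2, Sin3a and Mbd2 slope up and Ctbp1 and Rbbp4 slope down with the share, and Ctbp2 slopes down with the striatal markers (r = -0.972), with both genotypes along the same line.

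In female mutant 3 the 46 genes split by the base composition of their transcripts. It was the lowest of the 6 mutants for 26 of the 46 genes and the highest for 14, against 48.8% and 36.3% of all genes. The log2 ratio of its CPM to the mean of the other 5 mutants (0.5 CPM added) had a median of -0.38 and an SD of 0.963 over the 46 genes, against -0.17 and 1.06 over all genes tested. Across the 46 genes the ratio went with the G and C share of the transcript at r = -0.593, and across 15047 genes of at least 1 CPM at r = -0.603, a description across genes of the same libraries, which are not independent replicates. Of the 23 genes with a share of 53.1% to 62.9%, 21 were lower in female mutant 3, with a median ratio of -0.94. Of the 23 with 41.9% to 53.0%, 8 were lower, with a median of 0.23. The relation with transcript length was weaker (r = 0.224 with log2 length over the 46 genes).

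Rcor2, with 61.6% G and C over its transcript, had the lowest ratio at -2.81, followed by Hdac6 at -2.02, Sirt3 at -1.90 and Sirt7 at -1.85. Hdac2, with 41.9%, stood at 1.33 and Sin3a, with 48.3%, at 1.27. Mbd2 departed from this order, with 56.5% G and C and the highest ratio, 1.495. Genes whose level rose with the mitochondrial share over the other 11 libraries tended to be high in female mutant 3 (r = 0.722 across the 46 genes, between the r with the share and the log2 ratio). Female mutant 3 took no part in the r with the share, but the other mutants entered both that r and the ratio. No value over all genes is given for comparison. Whether base composition or the mitochondrial share accounts for those levels was not tested.

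**Figure D5:**
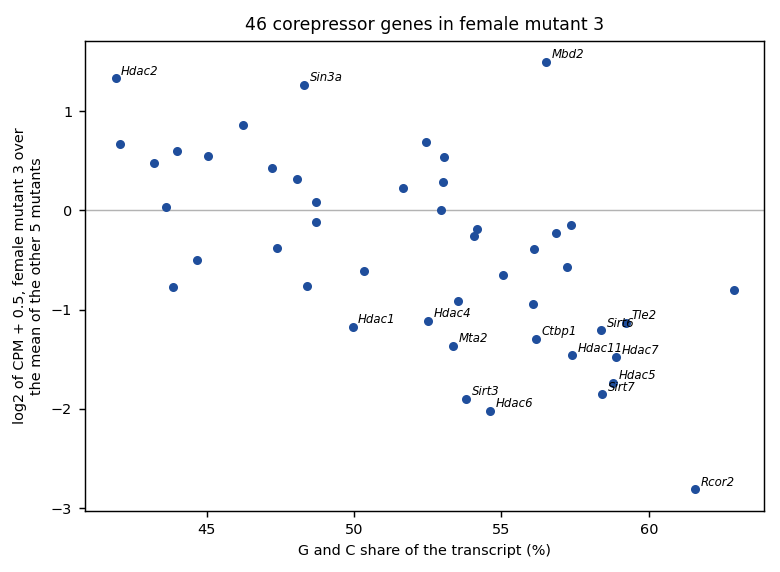
Log2 ratio of CPM (0.5 added) in female mutant 3 over the mean of the other 5 mutants, against the G and C share of the transcript in percent, 1 point per gene, with genes beyond 1.1 in either direction named. The points descend to the right (r = -0.593), with Hdac2 high at 41.9%, Rcor2 low at 61.6% and Mbd2 away from the slope.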

How the data were processed

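RNA was read from the cortex of 12 mice, and per the labels' protocols it was extracted with TriReagent and the ISOLATE II kit, made into libraries with the Kapa mRNA HyperPrep kit and sequenced on a NovaSeq instrument as paired ends. The authors deposited whole-number read counts per Ensembl gene, not normalized. Per the submitters' processing notes, the tools were Trimmomatic 0.36, HISAT2 2.1.0, HTSeq 0.11 and Cufflinks, with build GRCm38.p6, while no source used here names the annotation release or the strand setting. Without a known strand setting, reads cannot be assigned with certainty where exons overlap, as they do for 20 of the 46 genes (15 with a gene on the other strand, 5 on the same strand). Of 54232 IDs, 54165 matched GENCODE M21, and the other 67 held at most 0.0297% of a library.

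The counts were fitted with edgeR 4.0.16 (filterByExpr, TMM scaling, glmQLFit and glmQLFTest, R 4.3.3), using terms for sex and genotype when the sexes were pooled, and a separate mean for each of the 4 groups otherwise. All groups shared 1 estimate of spread, and the Benjamini-Hochberg adjustment ran over all genes tested, with calls at an adjusted p below 0.05. The standard error is the log2 fold change divided by the square root of F, and 95% intervals use the fit's degrees of freedom. The labels do not say that the mice came from separate litters or batches, so p-values measure the spread between these mice. The fitting code was tested on simulated counts. Alternatives were DESeq2 1.42.0, limma-voom 3.58.1 with and without library weights, other scalings and filters, each library left out, other terms, and each sex alone. DESeq2 and library weights were also run without female mutant 3. The mitochondrial share and the striatal marker level as covariates were added after the data were seen. Correlations over libraries used 100000 permutations. A floor of 3 counts stands for a count of 0.

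The 46 genes and all gene lists were chosen with earlier results of these data known. Genes given in every library were those called (none) and the 12 of smallest p over both sexes, to which Hdac11 and Sin3b were added after their values were seen. The 4 of smallest p in each other comparison, the other family members and the 2 of smallest p in each further list are given by fold change, apart from a result that is not reported here. Tle5 is listed as Aes in GENCODE M21. Sap25, at 0 in every library, and Sall4 were not tested with 12 libraries. Protein identity between family members was not analysed here.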

Additional observations from a re-analysis of the deposited data

Results flagged for a closer look

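In groups of 6 libraries (mutants or wild types, 92 groups over the 46 genes), 25 held a library whose gap to its nearest neighbour took up more of the group's range than Dixon's 95% value allows, where chance gives about 1 group in 20. That is 27.2% of the groups, against 23% over all genes tested. Female mutant 3 was that library in 21 of the 25, or for 45.7% of the 46 genes, against 37% of all genes. It was the highest mutant for 9 genes: Hdac2 at 233 CPM, Hdac9 at 77.1, Sirt1 at 29.8, Sin3a at 101, Rcor3 at 28.3, Mta3 at 136, Mbd2 at 124, Gatad2b at 302 and Lcor at 28.7 CPM. It was the lowest mutant for 12 genes: Hdac1 at 9.29 CPM, Hdac4 at 30.2, Hdac5 at 25.6, Hdac6 at 8.52, Hdac11 at 55.4, Sirt6 at 3.10, Sirt7 at 5.03, Sin3b at 36.4, Rcor2 at 0.387, Mta2 at 15.1, Mbd3 at 28.7 and Rbbp4 at 65.8 CPM.

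The other 4 belonged to male wild type 8, the library of the highest mitochondrial share after female mutant 3. It was the highest wild type for Hdac2, at 113 CPM, and the lowest for Hdac4, at 49.9 CPM, Rcor1, at 23.5 CPM, and Ctbp1, at 108 CPM. The part of the mitochondrial share in these values was not tested.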

How the results depend on the processing

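No paired analysis was possible because mutant and wild-type mice carry different animal numbers. In every alternative run, 0 of the 46 genes were called in each of the 5 comparisons, and the median log2 fold change of the 46 over both sexes ran between -0.09 and 0.01. Over both sexes the most genes called of all those tested was 53 of 18461, with DESeq2 and female mutant 3 left out. The counts at an unadjusted p below 0.05 moved. Over both sexes (1 in the fit reported) they were 2 with DESeq2 and 4 with DESeq2 and female mutant 3 left out, 6 and 7 with limma-voom's library weights, 0 with scaling by library totals, 2 without a filter, 2 with 1 mean per group, 7 and 5 with the mitochondrial share as a covariate, 3 with the striatal markers and female mutant 3 left out, and 0 to 4 with 1 library left out. In females (9) they were 2 with limma-voom, 4 with library totals, 0 with females alone, 4 and 3 with the mitochondrial share, and 1 to 13 with 1 library left out. In males (1) they were 3 and 4 with library weights, 2 with DESeq2 and female mutant 3 left out, 0 with library totals, 0 without a filter, 3 with males alone, 3 and 3 with the mitochondrial share, 0 and 2 with the striatal markers, and 0 to 3 with 1 library left out. For the interaction (4) they were 2 with limma-voom, 7 with DESeq2 and female mutant 3 left out, 2 with library totals, 2 and 1 with the mitochondrial share, 2 with the striatal markers, and 0 to 9 with 1 library left out. For sex (1) they were 2 and 2 with DESeq2, 4 and 4 with library weights, 2 with either covariate and female mutant 3 left out, and 1 to 2 with 1 library left out. Where 2 counts are given, the second leaves out female mutant 3. The share of all genes at that p moved as well, between 2.61% and 12.7% over both sexes, 3.89% and 20.1% in females, 1.52% and 8.91% in males, 2.89% and 16.2% for the interaction and 1.08% and 8.08% for sex. The 6 and 7 genes with library weights were 13% and 15.2% of the 46, against 12.7% and 12.3%, and the 13 in females, without female mutant 6, were 28.3%, against 17.2%. The genes whose ranges separated numbered 0 to 1 with 1 library left out, the 1 arising without male mutant 27 or without male wild type 8. By the CPM values given above, Rcor2 separates in both of these cases. The share of all genes that separated in these runs was not counted.

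Of the 14 genes given in every library, 7 changed sign over both sexes in some alternative. Ctbp2 was at -0.083 with the striatal markers as a covariate and -0.0228 with female mutant 3 also left out. With the mitochondrial share, Mbd2 was at -0.0132 and -0.0135, Hdac2 at -0.031 and -0.0327 and Sin3a at -0.0221 and -0.026, each time with 12 and with 11 libraries. Mta2 was at 0.00338 with the striatal markers and 11 libraries. Hdac11, near 0 in the fit reported, was at 0.00946 with limma-voom, 0.158 and 0.17 with library weights, 0.163 with DESeq2 and 11 libraries, 0.178 and 0.171 with the mitochondrial share, 0.156 with the striatal markers and 11 libraries, and -0.0732 to 0.162 with 1 library left out. Sin3b was at -0.0185 with library totals, which moved the median of all genes to -0.0812, and -0.0246 to 0.156 with 1 library left out. The cause was not tested. Depth limited female mutant 3 most, where the lowest of the 46 genes rested on 1 read, against at least 71 in each other library.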

Other observations

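Genes that can replace each other in a complex kept their order of level per kilobase in every library except female mutant 3 for all but 1 of the 9 pairs read, which were chosen after the values were seen and have no test. Hdac2 stood above Hdac1 by 2.68 to 3.67 times in the 5 other mutants and 2.82 to 4.27 times in wild types, and by 19.3 times in female mutant 3. Chd3 stood above Chd4 by 2.21 to 2.82 times in mutants and 2.14 to 2.84 times in wild types, and Rbbp7 above Rbbp4 by 2.81 to 3.41 and 2.77 to 3.28 times. Ctbp1 stood above Ctbp2 by 8.21 to 10.8 times in mutants and 9.1 to 15 times in wild types. Mbd3 stood above Mbd2 by 1.58 to 2.20 times in mutants and 1.46 to 2.12 times in wild types, whereas in female mutant 3 the ratio was 0.374. Sin3b stood at 1.05 to 1.48 times Sin3a in mutants and at 0.895 to 1.31 times in wild types, the pair whose order was not kept, and at 0.263 in female mutant 3.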
